A study of Homo sapiens with 7 samples.

Results

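Broad acetylated domains of the T-cell acute lymphoblastic leukaemia (T-ALL) line PER-117 were described that had no counterpart among the broadest domains of a second T-ALL line, KARPAS-45. H3K27ac regions on chromosomes 1 to 22 and X were joined when they lay within 12.5 kb of each other, which gave 18975 PER-117 and 19836 KARPAS-45 domains. The 1000 domains with the most acetylated bases were kept in each line. Of the 1000 PER-117 domains, 531 overlapped none of the KARPAS-45 1000 and 469 overlapped at least 1 of them. The H3K27ac lists of both lines chose the 531 domains, so their H3K27ac values are a description without a test.

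The study profiled RUNX2 and H3K27ac by chromatin immunoprecipitation and sequencing in both untreated lines, with 1 library per line and antibody. PER-117 was grown with 10% and KARPAS-45 with 20% fetal bovine serum. The labels call both T-ALL cell lines, and the study's title names immature and KMT2A-rearranged T-ALL. Each line is a single culture here and stands for itself only, so every difference below is between libraries, without replicate error and without a test between lines. The T-cell genes of the lines were checked first: of 8 defining T-lineage genes, an acetylated gene end was found for 7 in PER-117, all except CD5, and for 8 in KARPAS-45. Of 15 defining genes of B, myeloid, erythroid and NK cells, 6 were acetylated at an end in PER-117 and 4 in KARPAS-45. Beside these counts, 55.5% of all protein-coding genes were acetylated at an end in PER-117 and 61.04% in KARPAS-45.

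Acetylation of lysine 27 of histone H3 marks active promoters and enhancers, and long clusters of acetylated enhancers often lie at genes that define a cell's identity. RUNX2 is a runt-domain transcription factor, best known from bone formation, that binds DNA with its partner CBFB and shares its motif with RUNX1 and RUNX3, which act in blood and T-cell development. RUNX factors are commonly found at acetylated enhancers of T cells.

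The domains did not bear out a strict reading of acetylation in PER-117 only. KARPAS-45 H3K27ac was present in 460 of the 531 domains and absent from 71. The 2 lists differ in length, with 76.2 Mb acetylated in PER-117 and 167 Mb in KARPAS-45, and the narrowest domain kept had 14.4 kb of acetylated bases in PER-117 but 35.8 kb in KARPAS-45. A domain could therefore be broad in both lines and still fall outside the KARPAS-45 1000. When all 2492 KARPAS-45 domains at least as broad as the narrowest kept PER-117 domain were used in place of the first 1000, an alternative chosen after seeing the data, 316 of the 531 domains were left. At the edge of the rule, the PER-117 domain ranked 1000 had 14380 acetylated bases and the next one had 14364. The closest KARPAS-45 domain to touch one of the 531 ranked 1005 and lay at ABHD17B and C9orf85, and the smallest overlap that kept a PER-117 domain out of the 531 was 1025 bases.

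Sequences are shown for transcript starts at which PER-117 RUNX2 summits lay, since these are the places where the peaks touch a promoter. Each is a RefSeq window (GRCh38.p14) of 300 bases, from 250 before to 50 after a transcript start, 5′ to 3′ on the gene's strand. Capitals mark the RUNX core letters TGTGGT, or ACCACA where the letters lie on the other strand. Of the genes that the rule for naming takes, 14 had such a window with a PER-117 RUNX2 summit (15 windows), and 5 of the 15 windows held the letters. The 3 with the highest PER-117 fold enrichment among those were SMAD3, at chr15:67098429-67098728 on the plus strand, PRF1, at chr10:70602692-70602991 on the minus strand, and IL21R, at chr16:27427021-27427320 on the plus strand. CCR4, at chr3:32951394-32951693 on the plus strand, is shown as a window with a PER-117 summit, no KARPAS-45 summit and none of the letters. The windows of SMAD3, IL21R and HEMGN lie inside the span of their gene, at an internal transcript start, and those of PRF1 and CCR4 at the gene's own start. HEMGN, at chr9:97938123-97938422 on the minus strand, was chosen after its values were seen, for its 3 matches.
SMAD3: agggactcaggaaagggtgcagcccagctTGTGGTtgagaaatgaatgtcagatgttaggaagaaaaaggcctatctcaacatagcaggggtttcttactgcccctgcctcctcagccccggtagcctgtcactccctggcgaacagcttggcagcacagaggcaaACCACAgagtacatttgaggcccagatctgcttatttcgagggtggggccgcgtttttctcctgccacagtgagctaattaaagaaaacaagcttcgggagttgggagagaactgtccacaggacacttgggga
PRF1: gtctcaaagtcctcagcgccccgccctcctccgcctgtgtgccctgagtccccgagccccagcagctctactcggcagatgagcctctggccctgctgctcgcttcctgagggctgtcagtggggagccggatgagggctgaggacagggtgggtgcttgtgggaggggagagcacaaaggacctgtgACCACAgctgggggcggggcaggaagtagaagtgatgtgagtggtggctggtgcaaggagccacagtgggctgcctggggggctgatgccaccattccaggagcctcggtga
IL21R: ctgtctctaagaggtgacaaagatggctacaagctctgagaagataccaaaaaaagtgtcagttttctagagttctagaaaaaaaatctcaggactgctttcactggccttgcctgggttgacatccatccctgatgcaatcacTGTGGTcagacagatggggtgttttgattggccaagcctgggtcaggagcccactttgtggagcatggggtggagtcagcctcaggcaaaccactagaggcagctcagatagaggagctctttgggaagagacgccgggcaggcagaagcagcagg
CCR4: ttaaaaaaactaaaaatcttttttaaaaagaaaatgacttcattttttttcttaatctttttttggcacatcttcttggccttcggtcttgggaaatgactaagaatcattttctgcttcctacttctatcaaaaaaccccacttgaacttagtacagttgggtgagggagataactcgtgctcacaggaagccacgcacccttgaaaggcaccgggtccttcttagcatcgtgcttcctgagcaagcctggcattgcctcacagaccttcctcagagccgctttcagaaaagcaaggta
HEMGN: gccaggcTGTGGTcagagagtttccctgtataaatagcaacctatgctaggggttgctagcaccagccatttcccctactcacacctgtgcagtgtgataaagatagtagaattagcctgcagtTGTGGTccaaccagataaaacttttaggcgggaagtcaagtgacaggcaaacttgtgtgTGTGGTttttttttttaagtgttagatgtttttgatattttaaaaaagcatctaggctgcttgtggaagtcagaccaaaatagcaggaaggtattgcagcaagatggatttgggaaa

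The summit in the SMAD3 window had a fold enrichment over background of 16.2 in PER-117 and 24.3 in KARPAS-45, as the authors' lists give it, and that in the PRF1 window 12.4 and 11.5. The IL21R window held a summit of 10.0-fold in PER-117 and none in KARPAS-45, and the CCR4 window one of 4.19-fold in PER-117 and none in KARPAS-45. In the HEMGN window, at a transcript start inside a gene for a nuclear protein of blood progenitors, the summits reached 20.7-fold in PER-117 and 9.71-fold in KARPAS-45. Both lines thus had a summit in the SMAD3, PRF1 and HEMGN windows, and the PER-117 library alone in those of IL21R and CCR4. This holds for the windows only, since KARPAS-45 had 1 summit elsewhere in the IL21R domain and a summit within 1 kb of an end of the gene outside this window. Folds rank peaks within a list and are not amounts of binding that can be set against each other between lines.

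Across the domains the letters were not frequent at transcript starts. Of 871 protein-coding windows in the 531 domains, 106 held them (12.2%, exact 95% binomial interval 10.1 to 14.5%), beside 11.3% of all 22132 protein-coding windows. Where a PER-117 RUNX2 summit lay in the window, 26 of 150 held them (17.3%, 11.6 to 24.4%), beside 11.1% of the 721 windows in the domains without one and 16.6% of all 2856 windows with one. A KARPAS-45 summit lay in 101 of the 150 windows (67.3%). A match is a run of letters, not a shown site, and all intervals given here cover counting error only.

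The 531 domains held 20.3 kb of PER-117 H3K27ac at the median, from 14.4 to 108 kb, spread over a median span of 49.5 kb and 11 separate regions. The 469 overlapping domains held 26.7 kb at the median. The very broadest PER-117 domains were less often among the 531: 13 of the first 50 and 29 of the first 100, beside 531 of all 1000. The first of the 531 ranked 8. KARPAS-45 H3K27ac inside the 531 domains had a median of 10.7 kb, from 0 to 54.6 kb, against 40.7 kb in the overlapping domains.

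Within the 531 domains a median of 36.6% of the PER-117 acetylated bases were also acetylated in KARPAS-45, from 0 to 100%, against 87.9% in the overlapping domains. The domains fell along this whole range. In 71 domains KARPAS-45 had no acetylated base, in 61 it covered under 10% of the PER-117 bases, in 194 from 10 to 50% and in 205 at least 50%. In 110 of the 531 domains KARPAS-45 had more acetylated bases than PER-117. The plot of H3K27ac bases in both lines shows this spread.

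**Figure D1:**
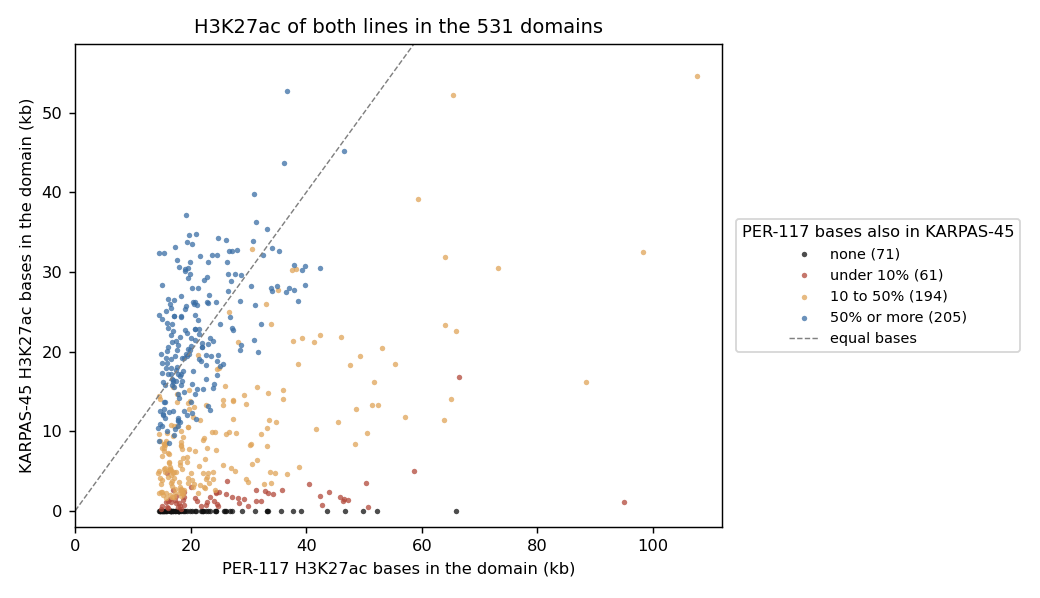
H3K27ac bases of PER-117 (x axis, kb) and of KARPAS-45 (y axis, kb) in each of the 531 domains, 1 point per domain, coloured by the share of PER-117 bases that KARPAS-45 also covered. The 71 black points lie at 0 on the y axis, and 110 points lie above the dashed line of equal bases.

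The share of PER-117 acetylated bases also acetylated in KARPAS-45 was higher at gene ends than away from them, though most of these common bases lay away from them (3.87 of 4.79 Mb). Of 1.39 Mb of PER-117 acetylated bases within 1 kb of a protein-coding gene end, 66.2% were also acetylated in KARPAS-45. Of the 11.7 Mb farther away, 33.0% were. In the overlapping domains the same shares were 88.7% and 80.8%. The domains without KARPAS-45 H3K27ac were also those with the fewest gene ends: 55 of these 71 held none (77.5%, 66.0 to 86.5%), against 38 of the 205 with at least 50% covered (18.5%, 13.5 to 24.5%).

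RUNX2 peaks were not used to choose the domains. A PER-117 RUNX2 summit lay in 522 of the 531 domains (98.3%, 96.8 to 99.2%), beside 49.4% of all PER-117 domains of any breadth and 98.9% of the overlapping ones. A KARPAS-45 summit lay in 460 (86.6%, 83.4 to 89.4%), beside 53.8% of all PER-117 domains and 99.6% of the overlapping ones. Broad domains offer more bases for a peak to fall in, and per 10 kb of PER-117 acetylated bases the median was 1.53 PER-117 peaks in the 531 and 1.61 in the overlapping domains. For KARPAS-45 the same medians were 1.36 and 2.49. On this scale PER-117 peaks were about as dense in both kinds of domain, and KARPAS-45 peaks less dense in the 531. The order for KARPAS-45 turned when its peaks were divided by its own H3K27ac bases, of which the 531 domains hold fewer. Summed over domains, and so not a median, there were 2.83 KARPAS-45 peaks per 10 kb in the 531 and 1.68 in the overlapping domains. These sums include summits outside KARPAS-45 H3K27ac: 78.3% of KARPAS-45 summits lay in it in the 531 and 95.4% in the overlapping domains. Per 10 kb of PER-117 acetylated bases, the mean of PER-117 peaks was 1.70 in the 531 and 2.47 in all PER-117 domains (medians 1.53 and 0). For KARPAS-45 peaks the means were 1.55 and 3.39 (medians 1.36 and 1.57). The greater shares with a peak in the 531 than in all PER-117 domains thus did not go with a higher mean density.

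Peaks of both lines lay in 456 of the 531 domains, of PER-117 alone in 66, of KARPAS-45 alone in 4 and of neither in 5. The PER-117 library had the greater number of peaks in 256 domains (48.2%, 43.9 to 52.6%) and KARPAS-45 in 171. Among the overlapping domains PER-117 had the greater number in 63 of 469 (13.4%, 10.5 to 16.9%) and KARPAS-45 in 350 (74.6%). The KARPAS-45 RUNX2 list is the longer one, with 42911 peaks against 21027.

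KARPAS-45 RUNX2 followed KARPAS-45 H3K27ac through the 531 domains, while PER-117 RUNX2 varied little with it. KARPAS-45 summits lay in 22 of the 71 domains without KARPAS-45 H3K27ac (31.0%, 20.5 to 43.1%), in 86.9% of those under 10%, in 94.3% of those from 10 to 50% and in 98.5% of those with at least 50% (95.8 to 99.7%). The PER-117 shares for the same classes were 97.2%, 98.4%, 97.4% and 99.5%. The median number of peaks per domain was 0, 2, 3 and 5 for KARPAS-45 and 3, 4, 4 and 4 for PER-117. Over the 531 domains Spearman's rho of the share covered in KARPAS-45 was 0.61 with the number of KARPAS-45 peaks and 0.05 with that of PER-117 peaks. In the overlapping domains, where most of the PER-117 bases were covered, the same values were 0.15 and -0.07. Each is a description over domains that share the same libraries.

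**Figure D2:**
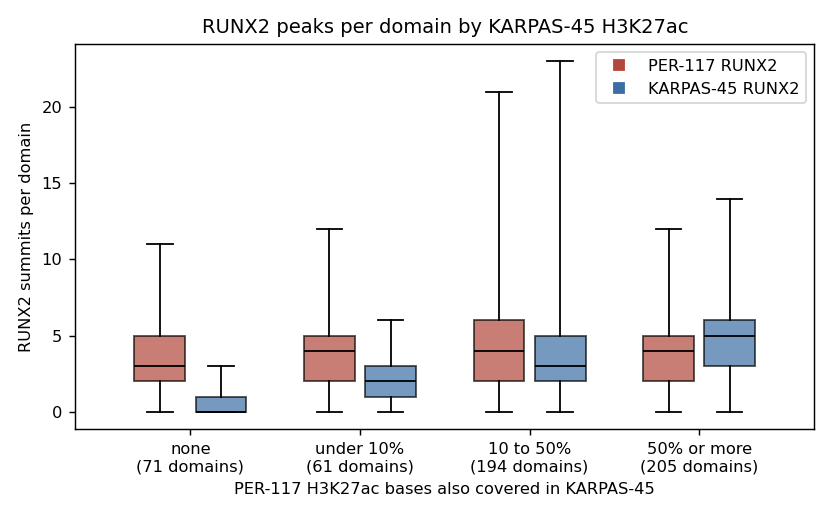
RUNX2 summits per domain (y axis) in PER-117 and KARPAS-45, with the 531 domains split by the share of PER-117 H3K27ac bases that KARPAS-45 also covered (x axis). Boxes span the interquartile range around the median line and whiskers reach the lowest and highest domain; the KARPAS-45 median goes from 0 to 5 while that of PER-117 stays at 3 or 4.

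Single peaks gave the same order. Of 2172 PER-117 RUNX2 peaks in the 531 domains, 1030 overlapped a KARPAS-45 peak (47.4%, 45.3 to 49.5%), against 69.0% of 2549 in the overlapping domains and 63.6% of the whole PER-117 list. In the classes of rising KARPAS-45 coverage the share was 7.88% (4.81 to 12.04%), 28.8%, 46.8% and 65.7% (62.3 to 69.0%). Peaks over 1 kb from any protein-coding gene end gave 43.4% in the 531 domains and 66.9% in the overlapping ones. The lower share was therefore not confined to peaks at gene ends.

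The same shares were also taken by whether the summit lay in KARPAS-45 H3K27ac. Where the PER-117 summit lay in KARPAS-45 H3K27ac, 831 of 1181 peaks in the 531 domains overlapped a KARPAS-45 peak (70.4%, 67.7 to 73.0%), against 72.7% (70.9 to 74.5%) in the overlapping domains and 79.1% of the whole list. Where it lay outside, 199 of 991 did (20.1%, 17.6 to 22.7%), against 25.9% (20.0 to 32.4%) and 37.9%. Within each split the 531 lay near the overlapping domains and below the whole list. Summits in KARPAS-45 H3K27ac made up 54.4% of the PER-117 peaks in the 531 domains and 92.0% in the overlapping ones. The median fold enrichment of PER-117 peaks was 5.87 in the 531 domains, 5.73 in the overlapping domains and 5.72 in the whole list.

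**Figure D3:**
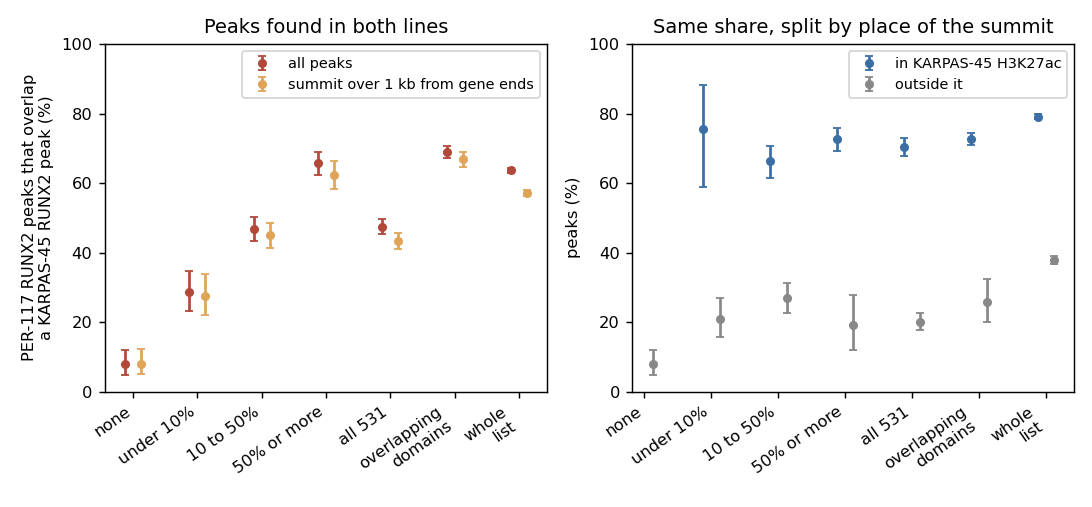
Share of PER-117 RUNX2 peaks that overlap a KARPAS-45 RUNX2 peak (y axes, percent, with exact 95% binomial intervals) in the 531 domains by class of KARPAS-45 coverage, in all 531, in the overlapping domains and in the whole list. On the left the share goes from 7.88% to 65.7% over the 4 classes; on the right the peaks are split by whether the PER-117 summit lies in KARPAS-45 H3K27ac, and within each split the 531 lie near the overlapping domains and below the whole list.

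KARPAS-45 peaks inside the 531 domains numbered 1905, and 1040 of them overlapped a PER-117 peak (54.6%, 52.3 to 56.9%), against 46.6% in the overlapping domains and 31.2% of the whole KARPAS-45 list. In the 71 domains without KARPAS-45 H3K27ac there were 30 KARPAS-45 RUNX2 peaks in 22 domains. Of these 30, 20 overlapped a PER-117 peak (66.7%, 47.2 to 82.7%). KARPAS-45 RUNX2 was thus listed at some sites of these domains without listed acetylation.

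The broadest of the 531, ranked 8 in PER-117 (chr9:132977065-133164354, hg38), held ends of GFI1B, a zinc-finger repressor of erythroid and megakaryocyte development, GTF3C5, a subunit of an RNA polymerase III factor, and CEL, a lipase. PER-117 had 108 kb of H3K27ac and 21 RUNX2 summits there, and KARPAS-45 54.6 kb and 6. The first stretch of the domain, up to 45.2 kb from its start, had no KARPAS-45 H3K27ac. The strongest PER-117 summit, of 27.1-fold, lay in it, 26.1 kb from the start. KARPAS-45 covered 43.1% of the PER-117 acetylated bases, all of them beyond this first stretch, as the maps of 6 domains show.

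VAV3, a guanine nucleotide exchange factor of antigen receptor signalling, lay in a domain of 94.98 kb of PER-117 H3K27ac (rank 12, chr1:107773952-107966164) in which KARPAS-45 had 1.09 kb. It held 6 PER-117 RUNX2 summits and 1 of KARPAS-45. The single KARPAS-45 summit, of 14.6-fold, coincided with the strongest PER-117 one, of 13.5-fold. At this site, the lines shared the RUNX2 peak and the only stretch of KARPAS-45 H3K27ac.

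ZBTB16, which encodes the factor PLZF of innate-like lymphocytes (rank 80, chr11:114044304-114148317), had 52.2 kb of H3K27ac and 8 RUNX2 summits in PER-117. In KARPAS-45 it had no H3K27ac and 3 summits. EPAS1, which encodes HIF-2 alpha (rank 61, chr2:46252904-46383086), had 57.1 kb and 12 summits in PER-117 and 11.8 kb and 4 in KARPAS-45. In both domains PER-117 had more H3K27ac and more RUNX2 summits.

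SMAD3, which encodes a transducer of TGF-beta signals, went the other way for RUNX2 (rank 35, chr15:67013730-67199396). PER-117 had 65.4 kb of H3K27ac and 9 summits, and KARPAS-45 52.2 kb and 23. Of the PER-117 acetylated bases 42.5% were acetylated in KARPAS-45 too, so that both lines were acetylated along the gene at partly different places. This domain was outside the KARPAS-45 1000 because KARPAS-45 domains there were narrower than its limit, the broadest ranking 1283.

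**Figure D4:**
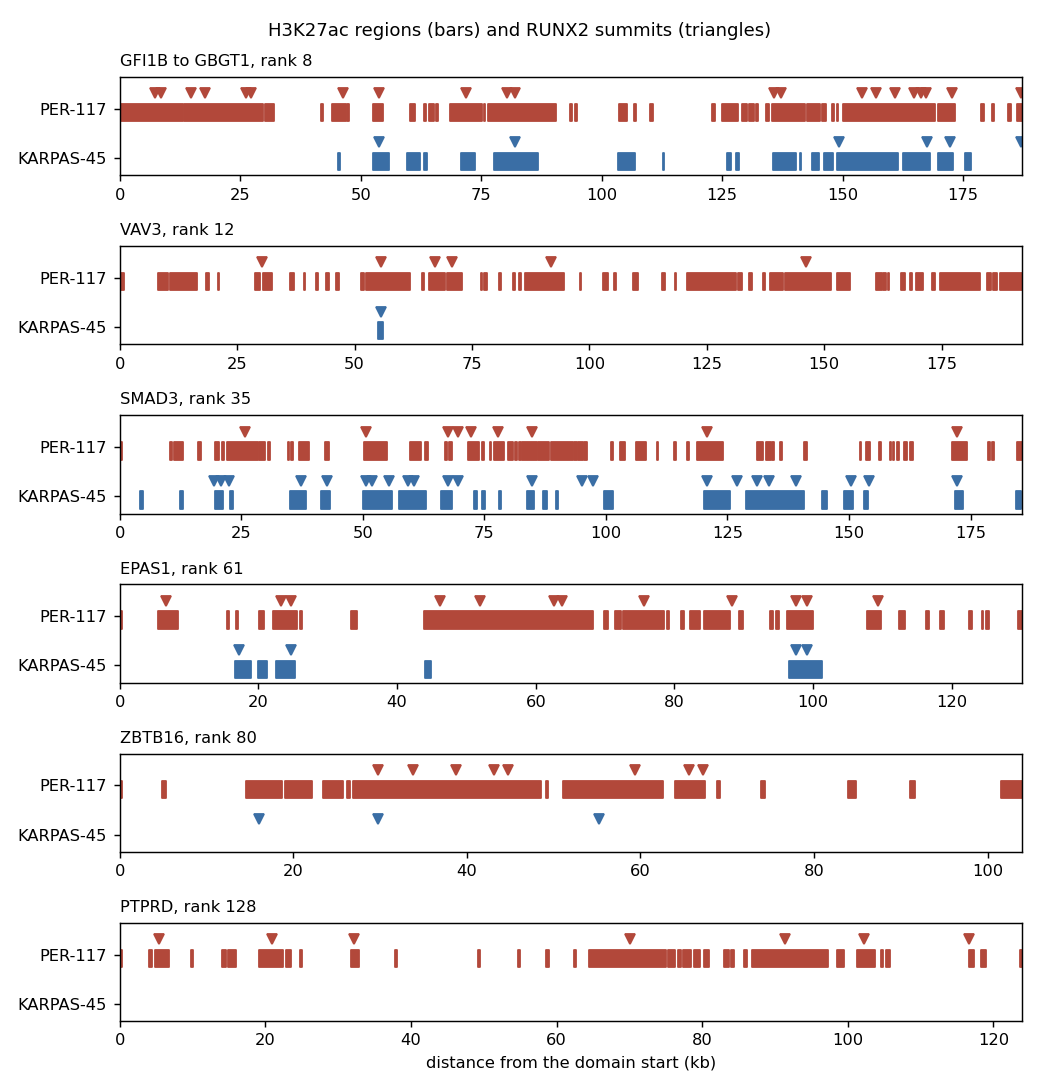
H3K27ac regions (bars) and RUNX2 summits (triangles) of PER-117 (upper row) and KARPAS-45 (lower row) in 6 of the 531 domains, by distance from the domain's start (x axis, kb). The KARPAS-45 row is empty at PTPRD, holds RUNX2 summits without H3K27ac at ZBTB16, and holds 23 summits at SMAD3.

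The other domains among the 20 broadest held, or lay nearest to, genes of many kinds. KSR1, a MAP kinase scaffold, shared a domain with LGALS9, a galectin gene, with 88.4 kb of H3K27ac in PER-117 and 16.2 kb in KARPAS-45. The adhesion receptor genes ADGRG5, ADGRG1 and ADGRG3 lay with DRC7 in a domain of 73.2 against 30.5 kb, and CEBPG, which encodes a leucine-zipper factor, with PEPD in one of 66.5 against 16.8 kb. In the domains of KSR1, ADGRG5 and CEBPG, KARPAS-45 covered 17.3%, 36.8% and 6.74% of the PER-117 acetylated bases. These domains had 6, 5 and 7 RUNX2 summits in PER-117 and 8, 6 and 1 in KARPAS-45, so that the greater PER-117 breadth did not always go with more PER-117 peaks. KCNH2, a potassium channel gene, and NOS3, a nitric oxide synthase gene, lay with ATG9B and ABCB8 in a domain with 20 PER-117 and 16 KARPAS-45 summits. Other domains lay at SUSD6, inside XXYLT1 and nearest to DLK1. Further domains held SAPCD2, UAP1L1 and MAN1B1, then NUP188, SH3GLB2, MIGA2 and DOLPP1, then FBXW5, C8G, LCN12 and PTGDS, and PRRT1B with RAPGEF1. In the alternative by equal breadth, 11 of these 20 domains were left, among them those of VAV3, KSR1, EPAS1 and ZBTB16, and that of GFI1B was not.

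Chromosome 9 held 41 of the 531 domains out of 57 kept there in PER-117 (71.9%), and 26 of the 41 started beyond 120 Mb, a limit chosen after the values were seen. In that stretch PER-117 had 37 kept domains and KARPAS-45 had 12. GFI1B, RAPGEF1, NUP188, FBXW5 and SAPCD2 all lie there. Over all chromosomes the 531 made up 53.1% of the kept PER-117 domains, from 37.9% on chromosome 6 to 74.1% on chromosome 3.

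Of the 71 domains without KARPAS-45 H3K27ac, 5 lay in antigen receptor loci, whose segments are joined in B and T cells. These loci were singled out after their values were seen. The immunoglobulin heavy chain locus (chr14:105586437-106879844) held 6 of the 531 domains, with 203 kb of H3K27ac in PER-117 and 2.49 kb in KARPAS-45. Of the 6, 4 had no KARPAS-45 H3K27ac. They held 33 PER-117 and 9 KARPAS-45 RUNX2 summits. The broadest (rank 34, chr14:106085715-106235666) lay over V segments, with 65.8 kb in PER-117, 11 PER-117 summits and 1 of KARPAS-45. The next (rank 92, chr14:105852198-105928348) lay over IGHM, 6 J and 27 D segments, with 49.7 kb, 6 PER-117 summits and 1 of KARPAS-45.

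In the T-cell receptor alpha and delta locus 3 of the 531 domains were found, and they were unlike each other. The broadest, over V segments (chr14:22040828-22124457), had 32.1 kb of H3K27ac in PER-117 and 9.59 kb in KARPAS-45, with 5 summits each. The one over TRDC, a delta constant gene (chr14:22449928-22476240), had 24.2 kb of H3K27ac in PER-117 and none in KARPAS-45, with 2 summits against 0. The one over TRAC, the alpha constant gene, and the end of DAD1 (chr14:22540009-22571054) had 21.3 kb in PER-117 and 28.0 kb in KARPAS-45, with 4 and 5 summits of up to 47.7-fold and 58.1-fold. KARPAS-45 covered 98.2% of the PER-117 bases at TRAC. Only the rank limit placed that domain among the 531, since its KARPAS-45 domain ranked 1088. In the T-cell receptor beta locus 1 of the 531 domains (chr7:142289614-142392577) had 36.7 kb in PER-117 and 52.7 kb in KARPAS-45, with 7 and 9 summits, so KARPAS-45 had the larger values there.

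The other 2 of the 5 broadest domains without KARPAS-45 H3K27ac lay inside genes with no gene end in them. XYLT1, a xylosyltransferase gene, held 46.6 kb in PER-117, with 4 PER-117 summits and 1 of KARPAS-45. PTPRD, a receptor phosphatase gene, held 43.6 kb with 7 PER-117 summits and 0 of KARPAS-45. Chosen after their values were seen, 3 others were SKAP1, a T-cell adaptor gene, with 39.1 kb and 7 against 2 summits, a stretch inside ERG, an ETS factor gene of blood progenitors, with 25.8 kb and 3 against 0, and HOXB2, HOXB3 and HOXB4 with 22.6 kb and 3 against 0. SKAP1 and the HOXB genes lie near each other on chromosome 17.

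MicroRNA genes were in the domains too: 46 of 1558 RefSeq hairpins (2.95%) lay in 38 of them. Of these, 3 were chosen after their values were seen because they are well known in blood cells, miR-223 in myeloid cells, miR-126 in blood stem cells and endothelium and miR-10a as a neighbour of HOXB genes. Their mature sequences follow with the seed, bases 2 to 8, in capitals, and no 2 of the 3 seeds are alike.
hsa-miR-223-3p: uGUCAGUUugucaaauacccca
hsa-miR-126-3p: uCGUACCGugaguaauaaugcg
hsa-miR-10a-5p: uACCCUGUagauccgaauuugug

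The miR-223 domain (chrX:65985334-66021008) held 24.4 kb of H3K27ac and 3 RUNX2 summits in PER-117 and 2.23 kb and 1 in KARPAS-45. The miR-126 domain, which also holds EGFL7 (chr9:136644375-136758440), held 51.8 kb and 7 summits in PER-117 and 16.2 kb and 3 in KARPAS-45. The miR-10a domain is that of HOXB2 to HOXB4 (chr17:48540892-48586226). The levels of these microRNAs were not measured here.

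The strongest PER-117 RUNX2 peaks of the 531 domains were not at domains that KARPAS-45 lacked. Summits of 63.7-fold lay in the domain of RNF168, a ubiquitin ligase gene, and SMCO1, of 49.1-fold in that of CD84, a SLAM-family receptor gene, of 47.7-fold in that of DAD1 and of 45.1-fold in that of DENND2D and CHI3L2. KARPAS-45 covered 39.0%, 66.9%, 98.2% and 74.1% of the PER-117 bases in these 4, and its own strongest summits reached 54.4-fold, 23.9-fold, 58.1-fold and 35.2-fold. Another of these strongest peaks lies in a domain on chromosome 8 that is not named. The 5 domains without a RUNX2 peak of either line lay at CPNE2 and PSME3IP1, GPR32, RIN3, LIN28B, and CCM2 and NACAD, with 14.5 to 26.6 kb of PER-117 H3K27ac.

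Of 19974 protein-coding genes, 861 had an end in one of the 531 domains (4.31%), 1208 in an overlapping PER-117 domain (6.05%) and 1430 in a KARPAS-45 domain outside the PER-117 1000 (7.16%). No gene end lay in 179 of the 531 domains, of which 100 lay inside a gene and 79 outside genes. At the 861 genes an end was acetylated in PER-117 in 96.5% and in KARPAS-45 in 85.2%, beside 55.5% and 61.04% of all protein-coding genes. A RUNX2 summit within 1 kb of an end was found at 51.9% of them for the PER-117 library and at 61.1% for KARPAS-45. These shares were 52.6% and 71.7% for genes in overlapping domains and 31.4% and 47.0% for all protein-coding genes. PER-117 alone had one at 97 genes (11.3%, 9.23 to 13.6%), against 5.63% of genes in overlapping domains and 3.42% of all protein-coding genes.

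Across 15 gene lists of 282 genes, 26 genes (9.22%) had an end in the 531 domains and 40 (14.2%) in overlapping domains. Cytokine receptor and JAK-STAT genes were the most frequent, with 9 of 30 in the 531, 6 in overlapping domains and 0 in KARPAS-45 domains outside the PER-117 1000, beside the 4.31%, 6.05% and 7.16% of all protein-coding genes. Genes of migration and adhesion followed with 5 of 22. None of 32 T-lineage genes, 20 T-ALL transcription factor genes, 20 KMT2A-fusion targets, 12 RUNX and cofactor genes or 14 survival genes had an end there. In overlapping domains 10, 5, 3, 3 and 2 of them had one, and in KARPAS-45 domains outside the PER-117 1000 9, 2, 5, 3 and 3. At the 4.31% of all protein-coding genes, lists this short would hold few genes or none, so these counts of 0 are near that share. The bar plot of gene lists gives every list.

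**Figure D5:**
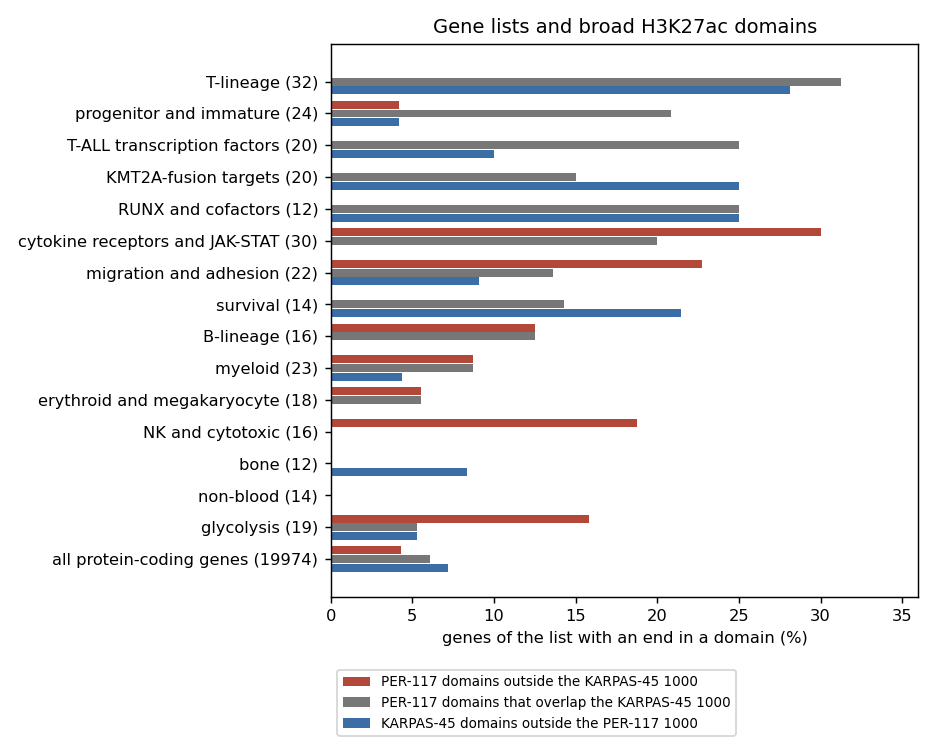
Percent of the genes of each list (number of genes in brackets) with an end in the 531 PER-117 domains, in PER-117 domains that overlap the KARPAS-45 1000 and in KARPAS-45 domains outside the PER-117 1000 (bars from 0). For the cytokine receptor and JAK-STAT list the bars are 30%, 20% and 0%, beside 4.31%, 6.05% and 7.16% for all protein-coding genes in the bottom row.

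The cytokine genes differed in how much of their domain KARPAS-45 shared. Here and below, a gene's values are those of its whole domain, which can hold other genes or reach beyond the gene. CISH, a feedback inhibitor of cytokine receptors, lay in the broadest of these domains (rank 33, chr3:50567202-50652536), with 65.9 kb of H3K27ac and 11 RUNX2 summits in PER-117 and 22.6 kb and 7 in KARPAS-45. PIM1, a kinase gene induced by STAT5, lay in a domain of 32.8 kb in PER-117 and 2.51 kb in KARPAS-45, with 4 and 5 summits. The domain at IL7R, the receptor gene for interleukin-7, held an end of the gene, lay mostly beyond it and also held CAPSL. This domain had 28.5 kb and 5 summits in PER-117 and 20.2 kb and 4 in KARPAS-45. KARPAS-45 was thus acetylated over little of the PER-117 domain at PIM1, though RUNX2 was listed there, and over much of that at IL7R.

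The receptor genes IL21R and IL4R lie side by side on chromosome 16 in 2 domains. IL21R had 26.2 kb and 4 summits in PER-117 and 3.80 kb and 1 in KARPAS-45, and IL4R 23.1 kb and 2 against 3.45 kb and 1. IL2RA, the alpha chain of the interleukin-2 receptor, had 20.1 kb and 6 against 4.77 kb and 5. In these 3 domains KARPAS-45 covered 9.96%, 14.9% and 16.2% of the PER-117 bases. The other members of the list, outside the rule for naming and given after their values were seen, were TYK2, IL6R and IL2RG, the common gamma chain, with 61.2%, 27.5% and 94.8% covered. By equal breadth 6 of the 9 were left, and CISH, IL7R and IL2RG were not.

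Among migration and adhesion genes, CCR4, a chemokine receptor gene, had the domain with the smallest share covered in KARPAS-45, 1.64% (rank 132, chr3:32946568-33024181). PER-117 had 42.7 kb of H3K27ac and 8 RUNX2 summits in its domain, and KARPAS-45 had 0.701 kb and 0. CCR7, the lymph-node homing receptor gene, had 23.6 kb and 5 against 32.1 kb and 9, so KARPAS-45 had the larger values there. ITGB7, an integrin gene, and CD99 were covered to 75.4% and 75.8% in KARPAS-45. By equal breadth, the domain of CCR4 was left and those of CCR7, ITGB7 and CD99 were not.

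NK and cytotoxic genes had 3 of 16 in the 531 domains and 0 in overlapping ones, beside 4.31% and 6.05% of all protein-coding genes. In a list this short the count of 0 is near that share. The domain at TBX21, the T-bet gene, held an end of the gene, lay mostly beyond it and also held TBKBP1. It had 22.7 kb and 8 summits in PER-117 and 3.98 kb and 6 in KARPAS-45. PRF1, the perforin gene, had 20.3 kb and 5 against 11.7 kb and 6, and NKG7, a granule gene, 15.8 kb and 7 against 10.1 kb and 6. RUNX2 was listed in both lines at all 3, and their domains stayed outside when KARPAS-45 domains were chosen by equal breadth.

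Lists of other blood lineages and of glycolysis had small counts in the 531 domains, at shares near or above the 4.31% of all protein-coding genes. These were 2 of 16 B-lineage genes (12.5%), 2 of 23 myeloid (8.70%) and 1 of 18 erythroid and megakaryocyte genes (5.56%). Progenitor genes had 1 of 24 (4.17%) and glycolysis genes 3 of 19 (15.8%). GATA2, a progenitor factor gene and the only one of 24 on its list, had 18.1 kb and 1 summit in PER-117 and 0.672 kb and 0 in KARPAS-45, and CD33, a myeloid surface gene, had 17.0 kb and 3 in PER-117 and no H3K27ac or RUNX2 peak in KARPAS-45. CD68, the B-lineage genes CD79A and IGLL1, and GP9, a platelet glycoprotein gene, were covered to 76.7%, 85.8%, 76.8% and 34.4% in KARPAS-45. Among glycolysis genes, HK2, a hexokinase gene, had 15.6 kb and 5 summits against 4.86 kb and 0. The domain at LDHA, a lactate dehydrogenase gene, lay mostly beyond the gene and also held GTF2H1, with 15.0 kb and 2 against 10.7 kb and 4. SLC2A1, a glucose transporter gene, had 19.3 kb and 4 against 33.7 kb and 6. Bone genes (12) and non-blood genes (14) had no end in the 531 domains, which in lists this short is near the share of all protein-coding genes.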

How the data were processed

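RUNX2 and H3K27ac were profiled in KARPAS-45 and PER-117 with 1 library each. Chromatin was crosslinked with 1.1% formaldehyde and precipitated with 10 µg of antibody, per the labels' protocols. Per the submitters' processing notes, hg38, MACS2 and STAR 2.4.2a were used, with parameters not given in the sources here. The authors deposited 1 list per library with a score, a fold enrichment (a linear ratio) and the −log10 p and −log10 q of each region. Read depth is unknown, and the lowest −log10 q of the deposited H3K27ac lists was 0.431 (KARPAS-45) and 1.01 (PER-117). The widest listed H3K27ac region had 367982 bases in KARPAS-45 and 38650 in PER-117. By their titles, the 3 inputs are 1 of KARPAS-45, 1 of PER-117 and 1 for PER-117 H3K27ac. They were not analysed here, and the labels do not say which input served each list.

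Domains, overlaps of at least 1 base and summits inside domains were computed with numpy and pandas, after the interval code was tested on simulated data. RUNX2 lines of 1 interval were merged at the summit of highest fold. Genes, promoters and microRNAs came from RefSeq tables of GRCh38.p14, whose chromosomes are those of hg38. A gene end is either end of its span, since strand and exons were not given, and all 282 list genes matched. Intervals are exact (Clopper-Pearson). The comparisons are counts with no test between lines. Named genes are those in the 20 broadest of the 531 domains, the 5 with the highest PER-117 RUNX2 fold, the 5 with the most PER-117 peaks, the 5 broadest without KARPAS-45 H3K27ac and the 5 without RUNX2 (at most 4 genes per domain), and list genes with an end in a domain (6 at most per list). The alternatives are given at the end. Domains and lists were chosen with earlier results of these data known. Genes of chromosome 8 and a few others are counted and not reported here by name.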

Additional observations from a re-analysis of the deposited data

How the results depend on the processing

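The alternatives were run for 8 counts, shares and medians of the 531 domains, and not for the overlapping domains, the whole lists or the classes set beside them. No paired analysis was possible because each line and antibody has 1 library and no test was made. The number of domains (531) was 311 with 500 domains kept per line, 943 with 2000 kept and 316 when KARPAS-45 domains were chosen by equal breadth, an alternative chosen after seeing the data. The share with a PER-117 RUNX2 peak (98.3%) was 96.1% and 99.4% with joining at 5 and 20 kb, 99.4% with 500 and 94.8% with 2000 domains kept, 95.8% with ranking by span, 91.9% with RUNX2 peaks of −log10 q of at least 10, and 68.9% with the 5000 peaks of highest fold per line. The share with a KARPAS-45 RUNX2 peak (86.6%) was 81.2%, 90.04%, 92.9% and 78.3% under the first 4 of these, 76.3% and 35.97% with the 2 stricter RUNX2 choices and 79.4% by equal breadth. The median share of PER-117 bases covered in KARPAS-45 (36.6%) was 50.5% with 500 and 24.8% with 2000 kept, 45.1% by span, 28.6% with H3K27ac regions of −log10 q of at least 2, 14.5% by equal breadth, and 0% with the KARPAS-45 list shortened to the PER-117 covered length, a setting that removes KARPAS-45 bases by construction. Domains without KARPAS-45 H3K27ac (71) numbered 24, 204, 47, 125 and 346 with 500 kept, 2000 kept, by span, with −log10 q of at least 2 and with the shortened list. Protein-coding genes with an end inside (861) were 365 by equal breadth. The share of PER-117 RUNX2 peaks that overlap a KARPAS-45 peak (47.4%), a result added after seeing the data, was 51.4% and 44.0% with 500 and 2000 kept, 49.7% by span, 50.2% with the shortened list, 37.0% by equal breadth and 24.4% with the 5000 strongest peaks. The cause of these shifts was otherwise not tested. Cytokine receptor and JAK-STAT genes in the domains (9) ranged from 6 to 11 over all domain settings. Depth is unknown and each list has its own significance limit, so an absent region or peak means only that it was not listed.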
